A study of Homo sapiens with 13 samples.

Results

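The genes described here encode the enzymes that add methyl groups to histone lysines and those that remove them. They were chosen by gene symbol alone, as the KDM, SETD, SETDB, PRDM and SMYD families followed by a number, together with SUV39H1, SUV39H2, SUV420H1, SUV420H2, EHMT1, EHMT2, WHSC1, WHSC1L1, NSD1, EZH1, EZH2, DOT1L, ASH1L, MLL and MLL2 to MLL5. By this rule 66 of the 24875 symbols in the Silvestrol table and 54 of the 13121 symbols in the INK128 table were members, 53 of them in both. Older symbols are kept as the table gives them, and by transcript accession MLL is now called KMT2A, MLL2 KMT2D, MLL3 KMT2C, MLL4 KMT2B, MLL5 KMT2E, WHSC1 NSD2 and WHSC1L1 NSD3.

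Histone lysine methylation marks chromatin states. Methylation of histone H3 at lysine 4 (H3K4) is found at active promoters and enhancers and that at H3K36 over transcribed gene bodies, while H3K9 and H3K27 methylation accompany silenced chromatin. Most of the methyltransferases carry a SET domain, DOT1L being an exception that methylates H3K79, and the demethylases are either amine oxidases (KDM1A, also called LSD1, and KDM1B) or JmjC-domain dioxygenases. Many of these enzymes are mutated or misexpressed in cancer, and several are drug targets.

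Ribosome profiling sequences the mRNA fragments that ribosomes protect from nuclease (ribosome footprints, RFs), which shows how heavily each mRNA is being translated. The cells were MDA-MB-231, an established human line of triple-negative breast cancer. They were left untreated, given the vehicle DMSO, or given 25 nM Silvestrol, a plant-derived inhibitor of the translation initiation helicase eIF4A, for 1 h or 2 h. RFs were sequenced from untreated cells, from the 1 h cells (1 library per treatment) and from the 2 h cells at passage 3 and passage 4 (2 libraries per treatment), and mRNA was sequenced at 2 h in passage 3 (1 library per treatment). A separate experiment at passage 3 compared DMSO with 200 nM INK128, an inhibitor of the kinase mTOR, for 2 h, with 1 RF and 1 total RNA library per treatment. All groups are cultures of the same line and carry no genetic change. For 2 libraries the labels contradict themselves (a treatment time of 1 h on the Silvestrol RF library of passage 3 at 2 h, and the word untreated on the DMSO mRNA library), and both were placed by title and description.

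Depth ranged from 2652423 counted reads (Silvestrol at 2 h, passage 4) to 50315607 (DMSO mRNA). In each passage the Silvestrol library at 2 h held fewer counted reads than its DMSO library (12010405 against 26176257 in passage 3, 2652423 against 6446356 in passage 4). The line's own markers were read at high levels, with VIM at 6454 and 4789 RPKM (reads scaled to transcript length and library size) in the RFs of the 2 DMSO cultures and CAV1 at 1433 and 2247 RPKM. The oestrogen receptor gene ESR1 was at 0 in the RFs of both, and the progesterone receptor gene PGR likewise. ERBB2 was low, at 3.27 and 3.90 RPKM. Lineage markers of blood, liver and T cells (PTPRC, ALB, CD3E) lay at or below 0.0307 RPKM there, and the stromal gene COL1A1 was at 1.72 and 1.26 RPKM. The epithelial gene EPCAM was not absent, at 3.24 and 9.69 RPKM, and CDH1 was at 0 and 0.0455 RPKM.

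Of the 66 members in the Silvestrol table, 53 had enough reads to be tested (a mean of at least 1 RPKM in the RFs and 0.3 RPKM in the mRNA of passage 3). The other 13 were EHMT2, SETD8, KDM4D, KDM4DL, KDM5D, SMYD1, PRDM6, PRDM7, PRDM9, PRDM12, PRDM13, PRDM14 and PRDM16. Of these, 8 had 0 reads in every library. EHMT2, which with EHMT1 forms the main H3K9 dimethyltransferase, is one of the 8 and is listed at 0 only in this table. In the separate INK128 table the same gene had 12.8 FPKM (the same scaling, of fragments) in the DMSO RFs. SETD8, the H4K20 monomethyltransferase, had 1 to 12 reads in the RF libraries of the Silvestrol table but 8.51 FPKM in the DMSO RFs of the other. Nothing can be said here of how Silvestrol affects these 2 genes.

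The tested members differed widely in how heavily they were translated. Per unit length, the mean RF level of the DMSO cultures at 2 h was highest for KDM1A (87.2 ± 2.76 RPKM, SD, n = 2), the H3K4 demethylase of the CoREST complex. SETD7 followed at 84.0 ± 2.63 RPKM, a level that overlaps with that of KDM1A. EZH2, the catalytic subunit of Polycomb repressive complex 2 (PRC2), stood at 66.9 ± 1.18 RPKM, SMYD3 at 66.3 ± 15.4 RPKM and SUV39H1 at 66.3 ± 7.24 RPKM, and these 3 did not differ beyond their spread. The lowest tested member was PRDM1, at 1.25 ± 0.107 RPKM. Within families, 1 paralog was usually read far more than the other. EZH2 exceeded EZH1 (11.7 ± 0.686 RPKM), SUV39H1 exceeded SUV39H2 (22.4 ± 3.22 RPKM) and SETDB1 (11.6 ± 0.112 RPKM) exceeded SETDB2 (1.82 ± 0.00511 RPKM). The MLL genes, grouped here with the H3K4 methyltransferases, all lay between 3.19 ± 0.131 RPKM (MLL3) and 8.06 ± 0.474 RPKM (MLL).

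The first question was which of these enzymes lose or gain ribosomes when eIF4A is inhibited for 2 h. RF counts of 8 members fell and those of 1 rose, by edgeR's quasi-likelihood test over all 10505 genes at a Benjamini-Hochberg adjusted p below 0.05. The members that fell were PRDM4, MLL2, WHSC1L1, SETD3, KDM1B, SETD5, KDM5C and KDM1A, and the member that rose was MLL. As a share of the 53 tested members, 15.1% fell, against 7.76% of all genes tested, and 1.89% rose, against 2.23% of all genes. The median log2 change of the members was -0.05 and that of all genes was -0.01. With the passage as a block, which uses the pairing of DMSO and Silvestrol within each passage, 18 members fell and 10 rose. Of all genes, 28.1% fell and 25.0% rose in that paired fit, beside 34.0% and 18.9% of the members. DESeq2 without the block called the same 9 members and added MLL5 and SUV420H1 as lower and MLL4 and KDM5B as higher, so 10 were lower and 3 higher (9.6% and 5.82% of all genes). Calls named below are edgeR's, in the fits with and without the block, unless another is given. Both Silvestrol libraries were needed for the calls without the block: leaving out the passage 3 or the passage 4 Silvestrol library ended every call by edgeR, among the members and among all genes. Each value is a share of a library made from bulk cells, so a large loss of footprints in some cells and a smaller loss in all cells cannot be told apart.

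**Figure D1:**
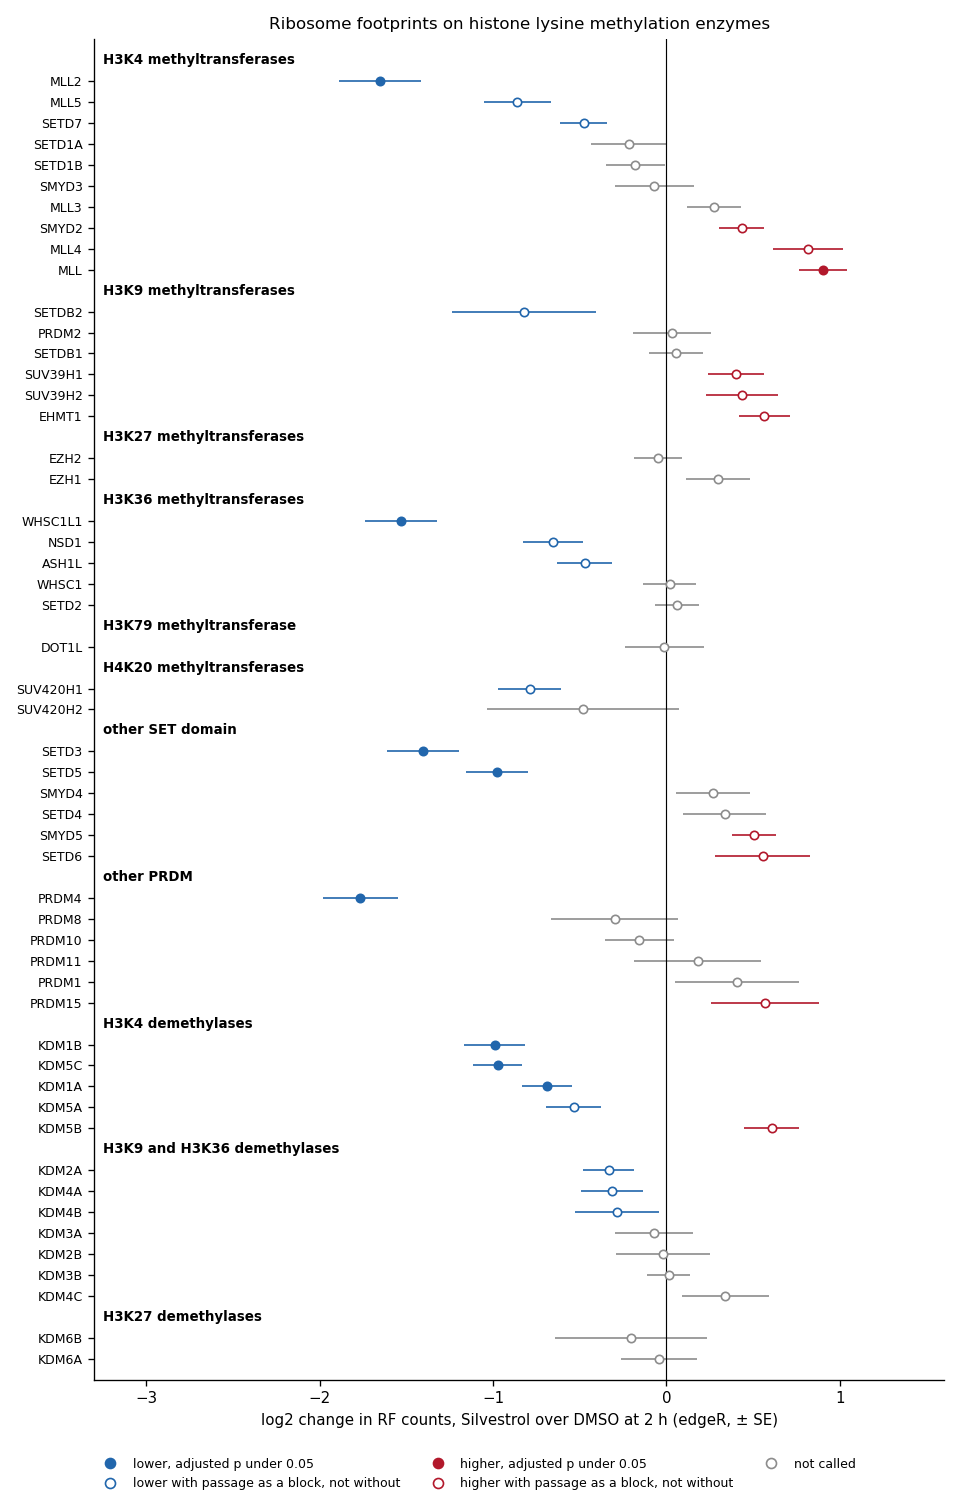
Log2 change in RF counts with Silvestrol at 2 h for 52 of the 53 tested enzymes, grouped by the histone residue they act on. Points are edgeR estimates and bars their standard errors, filled points passed the test, open coloured points passed with passage as a block and not without it, and grey points passed neither. The 8 filled points on the left are spread over 5 of the 11 groups, and the single filled point on the right is MLL.

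Among the H3K4 methyltransferases, 10 of 12 were tested, and the MLL family split. MLL2 stood at 3.91 and 2.92 RPKM in the RFs of DMSO cells at passages 3 and 4, and at 0.912 and 1.11 RPKM with Silvestrol. Both treated cultures lay below both controls, and the log2 change was -1.65 ± 0.23 (SE, adjusted p = 0.0237, edgeR). With 2 libraries per treatment, groups that do not overlap are a description and no test, here and below. The share of all genes with such groups is not given. MLL2 lays down H3K4 monomethylation at enhancers.

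MLL moved the other way. It had 8.40 and 7.73 RPKM in DMSO and 13.4 and 14.4 RPKM with Silvestrol, and its log2 change was 0.90 ± 0.14 (adjusted p = 0.0266, edgeR). The treated cultures of MLL lay above both controls and above the untreated cells (12.03 RPKM). MLL maintains H3K4 trimethylation at developmental genes such as the HOX clusters and is broken by translocations in leukaemia.

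MLL4, the closest paralog of MLL, had 4.62 and 3.65 RPKM in DMSO and 6.59 and 6.90 RPKM with Silvestrol. Its groups did not overlap either, and its log2 change of 0.82 ± 0.20 passed the test with the block and not without it (adjusted p = 2.63e-08 and 0.0619, edgeR). MLL5, a divergent member of the family, had 6.46 and 5.91 RPKM in DMSO and 3.25 and 2.95 RPKM with Silvestrol. Its change of -0.86 ± 0.19 passed with the block and not without it (adjusted p = 2.77e-07 and 0.0527, edgeR). MLL4 passed without the block once the passage 3 DMSO library was left out (1.04), and MLL5 once the passage 4 DMSO library was (-0.95) or with no filter on low values. MLL3, the paralog of MLL2, had 3.10 and 3.28 RPKM in DMSO and 3.25 and 3.81 RPKM with Silvestrol, so its groups overlapped, and its log2 change was 0.27 ± 0.16. The 5 genes of this family thus ranged from a loss to a gain at the same dose and time.

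Of the other H3K4 methyltransferases, SETD7 (82.1 and 85.8 RPKM in DMSO, 56.2 and 54.0 RPKM with Silvestrol) was lower and SMYD2 (50.6 and 56.6 RPKM, then 62.0 and 70.9 RPKM) higher with the block and not without it. Both enzymes also methylate proteins other than histones. SETD1A and SETD1B, the catalytic subunits of the COMPASS complexes that make most H3K4 trimethylation, had log2 changes of -0.22 ± 0.22 and -0.18 ± 0.17 and passed in neither fit.

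RFs of 3 of the 5 tested H3K4 demethylases fell, and the group's median log2 change was -0.69. With the block 4 fell and 1 rose. Over all genes 7.76% fell without the block, and 28.1% fell and 25.0% rose with it. KDM1B, which demethylates H3K4 in the gene bodies of transcribed genes, had 17.4 and 17.9 RPKM in DMSO and 7.88 and 8.42 RPKM with Silvestrol (log2 change -0.99 ± 0.17, adjusted p = 0.0337, edgeR). KDM5C, an X-linked JmjC demethylase, had 26.8 and 23.4 RPKM in DMSO and 11.3 and 11.1 RPKM with Silvestrol (-0.97 ± 0.14, adjusted p = 0.0245). KDM1A had 89.1 and 85.2 RPKM in DMSO and 51.3 and 47.3 RPKM with Silvestrol (-0.69 ± 0.14, adjusted p = 0.0458). For all 3 genes the treated cultures lay below every DMSO and untreated library.

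The 2 remaining tested genes of this group moved in opposite directions. KDM5A had 10.7 and 11.6 RPKM in DMSO and 6.54 and 7.56 RPKM with Silvestrol, and KDM5B had 28.2 and 26.4 RPKM in DMSO and 40.3 and 35.8 RPKM with Silvestrol. Neither pair of groups overlapped. Both passed with the block and not without it, KDM5A at a log2 change of -0.54 ± 0.16 and an adjusted p of 0.0907 without and 0.000254 with it, and KDM5B at 0.61 ± 0.16, 0.0702 and 1.53e-08 (edgeR). KDM5B is raised in many breast cancers. Leaving out the passage 3 DMSO library ended the calls of KDM1A and KDM1B made without the block, at changes of -0.62 and -0.97, and the other scaling method (RLE) ended that of KDM1A, at -0.65.

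**Figure D2:**
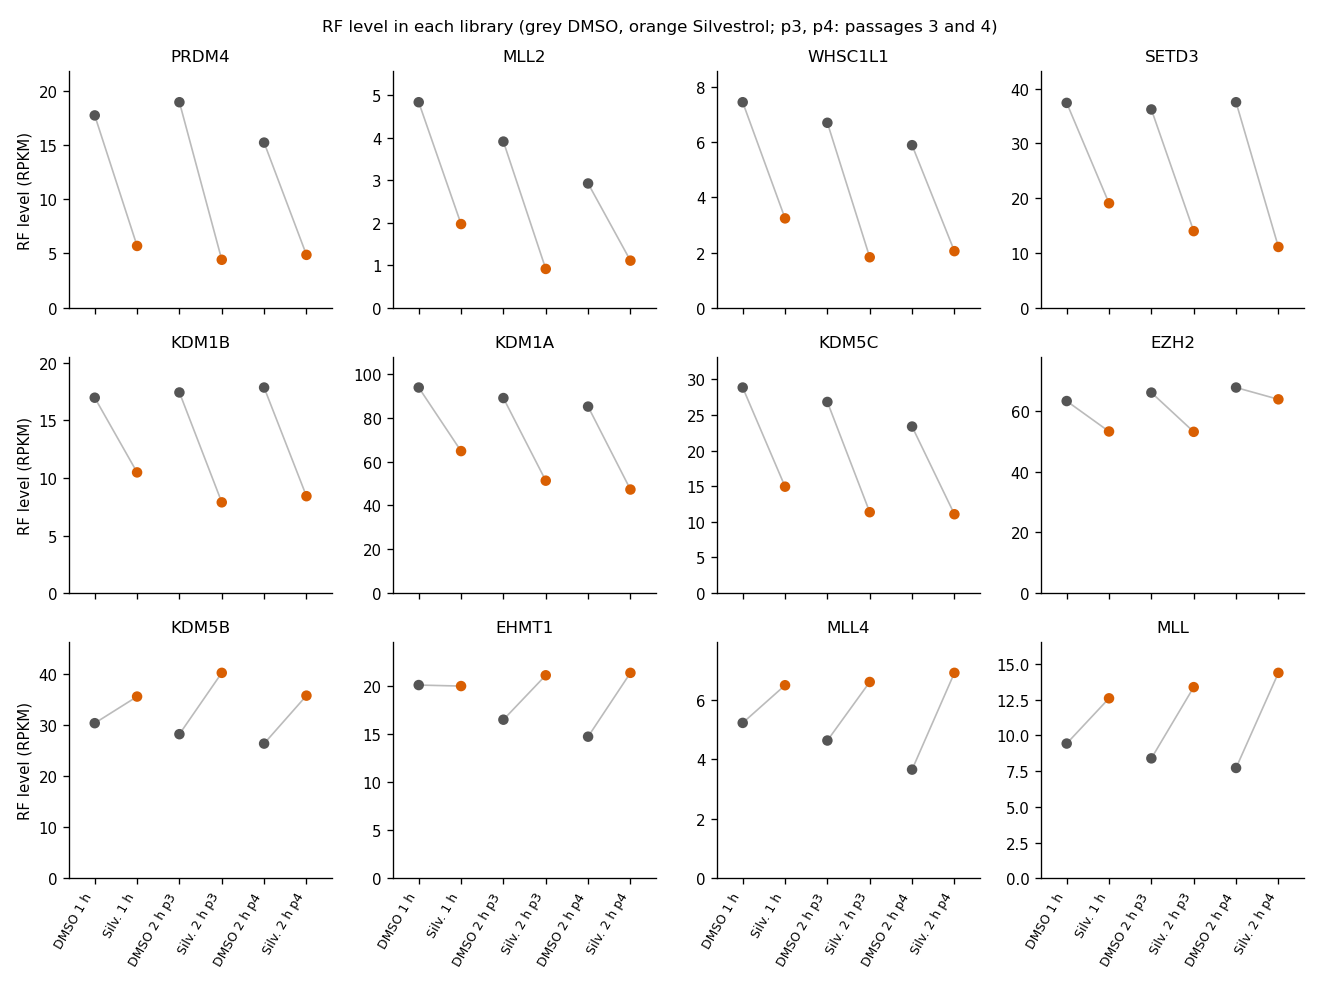
RF level in RPKM (vertical axes, each from 0) of 12 enzymes in the 6 treated and control RF libraries of the Silvestrol experiment, with grey points for DMSO, orange points for Silvestrol and a line joining each pair. PRDM4 falls from between 15.2 and 18.9 RPKM in the 2 h controls to 4.42 and 4.87 RPKM, EZH2 stays between 53.1 and 67.7 RPKM at 2 h, and MLL rises to 13.4 and 14.4 RPKM.

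The H3K36 methyltransferases had 1 call among 5 tested members, and with the block 3 were lower, where 7.76% and 28.1% of all genes fell. WHSC1L1, often amplified in breast cancer, had 6.71 and 5.89 RPKM in DMSO and 1.83 and 2.05 RPKM with Silvestrol. No library of one treatment overlapped with the other, and the log2 change was -1.53 ± 0.21 (adjusted p = 0.0222, edgeR). Its paralog NSD1 (7.25 and 7.68 RPKM, then 3.81 and 4.97 RPKM) was lower with the block and not without it, at -0.66 ± 0.17. ASH1L, which works with the Trithorax group, was too, at -0.47 ± 0.16. WHSC1, the third of these paralogs and the one activated by translocation in myeloma, had 43.8 and 37.6 RPKM in DMSO and 35.2 and 40.5 RPKM with Silvestrol. Its groups overlapped, as did those of SETD2, which trimethylates H3K36 (12.6 and 13.0 RPKM, then 11.3 and 13.3 RPKM), and neither passed a fit. SUV420H1, an H4K20 methyltransferase, had 11.8 and 13.4 RPKM in DMSO and 6.07 and 7.41 RPKM with Silvestrol. Its change of -0.79 ± 0.18 had an adjusted p of 0.0545 (edgeR) without the block and passed with it. SUV420H2 was read at 74 and 28 reads in the passage 3 libraries, too few to show a change of its size (-0.48 ± 0.55).

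Among the enzymes of silenced chromatin no member passed without the block. The 6 tested H3K9 methyltransferases had a median log2 change of 0.23, and with the block 3 were higher and 1 was lower, where 25.0% and 28.1% of all genes were. EHMT1 had 16.5 and 14.7 RPKM in DMSO and 21.1 and 21.3 RPKM with Silvestrol (log2 change 0.57 ± 0.15, adjusted p = 0.0724 without the block and 1.14e-05 with it, edgeR). The untreated cells and the 1 h control had 20.2 and 20.05 RPKM, near the treated values, so the 2 h controls of EHMT1 were low beside the other control libraries. SUV39H1 (71.4 and 61.2 RPKM, then 83.1 and 77.5 RPKM) and SUV39H2 (20.1 and 24.7 RPKM, then 28.2 and 26.3 RPKM), the pair that trimethylates H3K9 in heterochromatin, were each higher with the block. SUV39H2 had 27.02 RPKM in the untreated cells, between its treated values. SETDB1 changed by 0.05 ± 0.16. SETDB2 had 134 reads in the passage 3 DMSO library and 26 in the treated one, with 1.82 and 1.82 RPKM in DMSO and 0.720 and 1.35 RPKM with Silvestrol, and its error was large (-0.82 ± 0.42).

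The H3K27 enzymes passed in neither fit. EZH2 had 66.1 and 67.7 RPKM in DMSO and 53.1 and 63.9 RPKM with Silvestrol, a log2 change of -0.05 ± 0.14. EZH1 stood at 0.30 ± 0.18, and the H3K27 demethylases KDM6A and KDM6B at -0.05 ± 0.22 and -0.20 ± 0.44. DOT1L had 9.65 and 7.00 RPKM in DMSO and 7.46 and 7.82 RPKM with Silvestrol (-0.01 ± 0.23). Of the 7 tested demethylases of H3K9 and H3K36, KDM2A, KDM4A and KDM4B were lower with the block, where 28.1% of all genes were, and none passed without it. KDM4B changed by -0.29 ± 0.24, and by 0.06 without the passage 3 DMSO library.

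The remaining members are SET-domain and PRDM proteins whose main substrates are not among these residues or are less settled. PRDM4 had the largest fall of any tested member. It had 18.9 and 15.2 RPKM in DMSO and 4.42 and 4.87 RPKM with Silvestrol, with 16.3 RPKM in untreated cells, and its log2 change was -1.77 ± 0.22 (adjusted p = 0.0197, edgeR). PRDM4 is a zinc finger transcription factor that binds PRMT5, an arginine methyltransferase.

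SETD3 is the histidine methyltransferase of actin, a SET-domain enzyme whose established substrate is not a histone. It had 36.2 and 37.5 RPKM in DMSO and 13.98 and 11.1 RPKM with Silvestrol (-1.41 ± 0.21, adjusted p = 0.0255, edgeR). SETD5, a chromatin regulator mutated in intellectual disability, had 8.58 and 10.3 RPKM in DMSO and 4.21 and 4.59 RPKM with Silvestrol (-0.98 ± 0.18, adjusted p = 0.0359). Every treated library of these 2 genes lay below every control. SMYD5 (50.6 and 51.1 RPKM, then 64.3 and 68.1 RPKM) and SETD6 were higher with the block and not without it, with log2 changes of 0.51 ± 0.13 and 0.55 ± 0.27, and PRDM15 was too (0.57 ± 0.31). The untreated cells had 2.82 RPKM of PRDM15, above its treated cultures (2.72 and 2.70 RPKM). For SETD6 they had 7.07 RPKM, between its treated values (7.04 and 10.1 RPKM). In passage 4, PRDM15 had 58 reads in DMSO and 43 with Silvestrol, and SETD6 had 68 and 50. MLL, MLL4, KDM5B, PRDM15 and EHMT1 were the 5 highest changes of the tested members, and PRDM4, MLL2, WHSC1L1, SETD3 and KDM1B the 5 lowest.

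The 1 h libraries gave a similar order with mostly smaller changes. With 1 library per treatment, these ratios have no test of their own. At 1 h 5 members were below a log2 RPKM ratio of -1, namely PRDM4 (-1.64), SETDB2 (-1.40), MLL2 (-1.30), WHSC1L1 (-1.20) and MLL5 (-1.01). That is 9.43% of the 53 members, against 7.98% of all genes with a ratio at 1 h. No member was above 1, where 0.343% of all genes were. MLL was already at 0.42 and MLL4 at 0.31, the 2 highest of the members, whereas EHMT1 was at -0.01 and SMYD5 at 0.08. These RPKM ratios are not scaled as the edgeR changes are. Their median over all genes was -0.18, against -0.01 for the edgeR change at 2 h. EHMT1 and SMYD5 lay above that 1 h median. Across the 53 members the 1 h ratio and the 2 h edgeR change, which share no library, had a Spearman rho of 0.85, against 0.77 over all genes. In the test of the difference between 2 h and 1 h (edgeR, interaction over 6 RF libraries, in which the lone 1 h libraries are assumed to vary like those at 2 h) 0 members and 0 genes were called, and 0 members and 112 genes were below an unadjusted p of 0.05. DESeq2 called 0 genes, and the paired fit called 121 genes lower and 93 higher, none of them a member.

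Translation efficiency (TE), the RF level divided by the mRNA level, asks whether the footprint changes follow the mRNA. With Silvestrol the mRNA of most members was higher. The log2 mRNA ratio was above 0 for 40 of the 53 members and its median was 0.32, against 0.04 over all genes tested. Past a log2 ratio of 1 were PRDM1 (0.358 RPKM in DMSO and 0.804 RPKM with Silvestrol) and SETDB2 (0.641 and 1.59 RPKM), 3.77% of the members against 4.71% of all genes, and no member was below -1, where 1.78% of all genes were. There is 1 mRNA library per treatment, and these ratios have no replicate check.

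The genes that lost the most footprints kept or gained mRNA. PRDM4 mRNA stood at 12.9 RPKM in DMSO and 19.7 RPKM with Silvestrol, MLL2 at 6.68 and 10.5 RPKM, SETD5 at 17.2 and 29.6 RPKM and MLL5 at 7.21 and 13.3 RPKM. The mRNAs of KDM1A (40.6 and 39.6 RPKM) and KDM5C (28.6 and 27.5 RPKM) were nearly level. Across the members the mRNA ratio and the RF change had a Spearman rho of -0.33, with -0.13 over all genes.

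**Figure D3:**
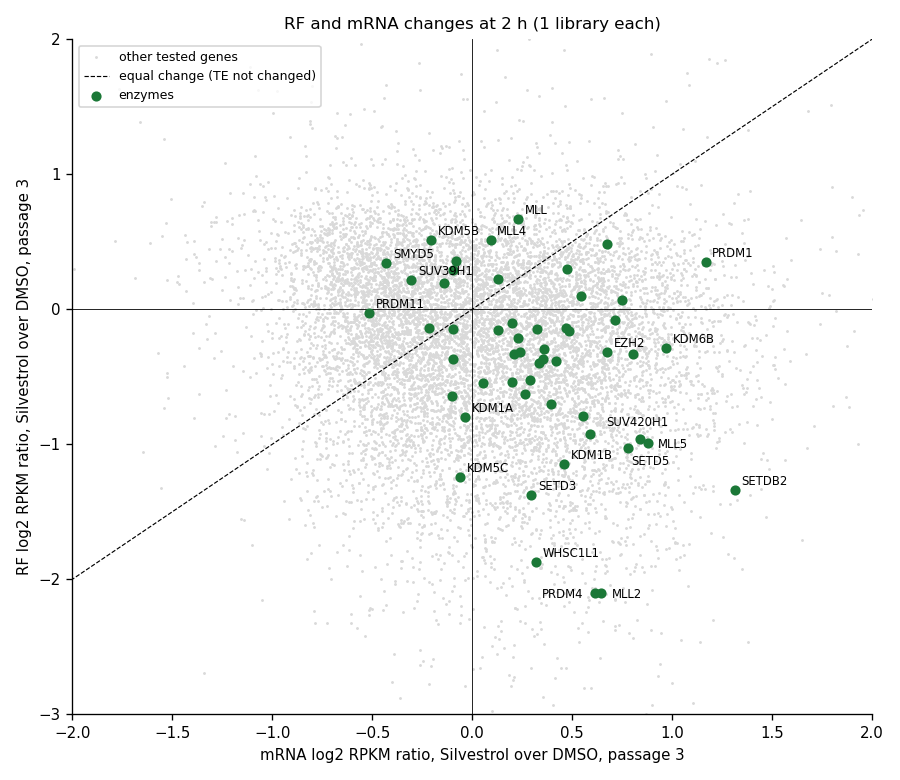
Log2 RPKM ratios of Silvestrol over DMSO in passage 3 at 2 h, mRNA on the horizontal and RF on the vertical axis, for the 53 enzymes (green) and the other tested genes (grey), with 1 library per value. Points below the dashed line have a lower TE by these ratios, and of the enzymes PRDM4 and MLL2 lie farthest below, with an RF ratio of -2.10 and an mRNA ratio above 0.6. The line is not the centre of the genes, since the log2 TE ratio had a median of -0.28 over all genes tested.

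In passage 3, 7 members had a TE change more than 1.5 SD below the mean of all genes (z-score). These were MLL2 (-2.49), PRDM4 (-2.46), SETDB2 (-2.39), WHSC1L1 (-1.92), MLL5 (-1.59), SETD5 (-1.52) and SUV420H1 (-1.52). They are 13.2% of the members, against 6.75% of all genes, and none was above 1.5, where 4.85% of all genes were. With no minimum RPKM 4 members were below -1.5, and with a minimum of 5 RPKM 3 were. The shares of all genes at these settings are not given, so the excess over all genes is shown for the main filter only. The TE of MLL2 went from 0.585 in DMSO to 0.0871 with Silvestrol, that of PRDM4 from 1.47 to 0.224, and that of SETDB2 from 2.83 to 0.452. With the RFs of passage 4 over the same mRNA the z-scores were -1.84 for MLL2, -2.06 for PRDM4, -1.52 for SETDB2, -1.62 for WHSC1L1, -1.66 for MLL5, -1.73 for SETD5 and -1.46 for SUV420H1, which no longer passed -1.5. SETD3, at -1.38 in passage 3, was at -1.84 and so joined them. The highest z-scores in passage 3 were those of SMYD5 (1.12) and KDM5B (1.06), and in passage 4 those of PRDM15 (1.31), SMYD5 (1.20) and MLL4 (1.18).

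The members as a group sat low, with a median z-score of -0.34 in passage 3 against 0.03 for all genes, and 38 of the 53 lay below that. In DMSO their median TE was 1.56, against 1.84 for all genes. EZH2, whose footprints passed no test, had a TE of 2.58 in DMSO and 1.30 with Silvestrol, and its mRNA stood at 25.6 RPKM in the control and 40.9 RPKM in the treated library.

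The edgeR test of TE (interaction of assay and treatment in 6 libraries at 2 h) called 0 members and 0.019% of all genes. At an unadjusted p below 0.05 it held 20 members and 2611 genes, and DESeq2 called 7 members lower (13.2%, against 5.13% of all genes) and 1 higher (1.89%, against 3.8%). The paired fit called 18 members lower (34.0%, against 22.5% of all genes) and 7 higher (13.2%, against 22.7%). EZH2, KDM6B and PRDM2 were among the 18 lower in TE while their RFs passed in neither fit, and MLL, MLL4, EHMT1, KDM5B, SMYD2, SMYD5 and SUV39H1 were the 7 that were higher. The mRNA has 1 library per treatment, so its own spread does not enter these tests.

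Footprint changes were then set beside features of the mRNA, first the length of the annotated 5′ untranslated region (UTR), which the ribosome scans before the start codon. Its length in GENCODE was found for all 53 tested members and for 10294 of the tested genes. The members had a median 5′ UTR of 197 nt, against 132 nt for all genes. Spearman's rho between length and RF change was -0.65 over the members and -0.59 over all genes, given as a description, since genes of 1 experiment share its libraries.

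All 6 tested members with a 5′ UTR of at most 30 nt had an RF change above 0. They were MLL4 (16 nt), MLL (21 nt), SETD6 (21 nt), SMYD5 (22 nt), SUV39H2 (23 nt) and EHMT1 (24 nt), with a median log2 change of 0.56. All 9 with more than 400 nt had a change below 0, with a median of -0.86. They were MLL2 (1219 nt), SETDB2 (925 nt), KDM2A (870 nt), ASH1L (750 nt), SETD5 (539 nt), KDM6B (521 nt), MLL5 (519 nt), WHSC1L1 (517 nt) and PRDM4 (437 nt). Over all genes the medians of the same length classes were 0.47 and -0.81, and 89.3% of the 1150 shortest and 11.6% of the 1075 longest were above 0. The members thus followed the order seen across the transcriptome.

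Paralogs were compared in pairs within 8 sets (the MLL, KDM1, KDM5, KDM6, EZH, SUV39H, SUV420H and SETDB genes). In 18 of the 19 pairs the gene with the longer 5′ UTR had the lower RF change, and 14 of the 19 differed by more than the sum of their standard errors. The exception was MLL (21 nt, 0.90) against MLL4 (16 nt, 0.82), which did not. Of the 19 pairs, 10 lie within the MLL set and 3 within the KDM5 set, so the pairs reuse genes and are not separate observations. The share for pairs drawn from all genes is not given, and length and RF change already had a rho of -0.59 over all genes. The other MLL genes were MLL3 (217 nt, 0.27), MLL5 (519 nt, -0.86) and MLL2 (1219 nt, -1.65), and the KDM5 genes were KDM5B (116 nt, 0.61), KDM5A (229 nt, -0.54) and KDM5C (318 nt, -0.97). In 3 further sets, taken up after their values were seen, it held for 3 of 3 pairs of WHSC1, NSD1 and WHSC1L1, for 4 of 6 pairs of the SMYD genes and for 0 of 3 pairs of the KDM4 genes. KDM4C, with the longest 5′ UTR of the tested KDM4 genes (248 nt), had the highest change of them (0.34 ± 0.25).

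Length did not order every gene. SETD3 has a 5′ UTR of only 140 nt and lost footprints by -1.41 on the log2 scale, and KDM1A, at 129 nt, fell by 0.69. KDM2A at 870 nt changed by only -0.33 ± 0.15, and KDM6B at 521 nt by -0.20 ± 0.44. SETD7, at 82 nt, was lower with the block, at -0.48.

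**Figure D4:**
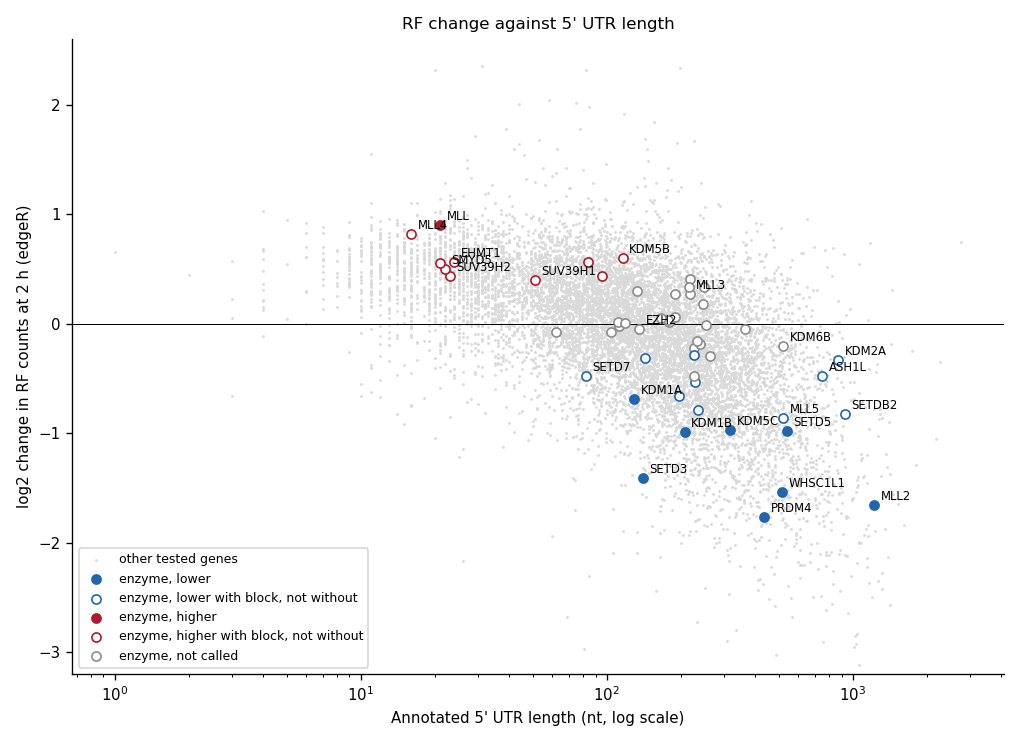
Log2 change in RF counts at 2 h (vertical axis, edgeR) against annotated 5′ UTR length in nt (horizontal axis, log scale) for the 53 enzymes (circles, filled where the test was passed, open and coloured where it was passed with the block and not without) and other tested genes with a 5′ UTR (grey). The enzymes run from MLL4 and MLL at 16 and 21 nt in the upper left to MLL2 at 1219 nt in the lower right, with SETD3 at 140 nt below every enzyme with a shorter 5′ UTR.

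The computed folding energy of the 5′ UTR, which becomes more negative with its length, gave a rho of 0.65 with the RF change over the members and 0.58 over all genes. It was -640.0 kcal/mol for MLL2, -254.8 kcal/mol for WHSC1L1 and -210.7 kcal/mol for PRDM4, and -4.7 kcal/mol for MLL. The GC content gave a rho of -0.08 and the length of the coding sequence one of -0.09, against 0.08 and -0.09 over all genes. An ATG upstream of the start codon was present in 6 of the 8 members that fell and in 26 of the 44 not called, and MLL has none. Over all genes tested it was present in 65.5% of those that fell and in 36.99% of those not called.

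The last feature was the run of 4 CGG triplets, a motif that has been linked to eIF4A dependence. It was searched for on the transcribed strand only, as CGGCGGCGGCGG, and it was in the 5′ UTRs of 7 of the 53 members, against 4.66% of all genes tested. Of the 8 members that fell, KDM1B and WHSC1L1 hold it, and the other 5 (EZH2, DOT1L, KDM2A, MLL3 and PRDM2) were not called without the block. Over all genes tested, 12.4% of those that fell, 4.09% of those not called and 0.435% of those that rose hold the run. The first matches in 6 of these genes are shown to set the run of a gene that fell beside those of genes not called, and that of WHSC1L1 is not printed here. Each is 30 bases of the 5′ UTR, with the matched run in capitals and coordinates in GRCh37 (hg19).

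KDM1B, chr6:18155660-18155689, plus strand, log2 change -0.99: gggcggaagCGGCGGCGGCGGcggcggccg
KDM2A, chr11:66886810-66886839, plus strand, log2 change -0.33: ccccggcagCGGCGGCGGCGGcggcggctc
EZH2, chr7:148581303-148581332, minus strand, log2 change -0.05: gtggagcccCGGCGGCGGCGGcggcggcgc
DOT1L, chr19:2164022-2164051, plus strand, log2 change -0.01: accggagcgCGGCGGCGGCGGcggcggcgg
PRDM2, chr1:14026735-14026764, plus strand, log2 change 0.03: gcgaaacagCGGCGGCGGCGGcggccctcg
MLL3, chr7:152132929-152132958, minus strand, log2 change 0.27: gagcagcagCGGCGGCGGCGGcggccgcgg

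The run continues past the 4 triplets in all 6 windows. KDM1B, which fell, and EZH2, which passed in neither fit, each have 6 triplets in a row in the window, and DOT1L has 7. MLL2, PRDM4, SETD3, SETD5, KDM5C and KDM1A fell with no such run in their annotated 5′ UTR.

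The partners of these enzymes were read from lists chosen by function. Of 8 tested partners of EZH2 in PRC2, 3 fell in RFs and none rose (edgeR), and with the block 5 fell. Over all genes 7.76% fell without the block and 28.1% with it, the shares against which this and the following lists are to be read. RBBP7, a histone-binding subunit, had 606.8 and 666.4 RPKM in DMSO and 150 and 164 RPKM with Silvestrol (log2 change -1.88 ± 0.12), SUZ12 had 42.8 and 49.8 RPKM and then 16.4 and 22.6 RPKM (-0.99 ± 0.21), and JARID2 had 20.02 and 19.7 RPKM and then 10.5 and 10.9 RPKM (-0.77 ± 0.15). EZH2 itself, the enzyme of that complex, passed in neither fit.

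Of 12 tested partners of the MLL and SETD1 enzymes, 1 fell, and with the block 5 did. This was HCFC1, at 39.2 and 31.6 RPKM in DMSO and 6.22 and 6.75 RPKM with Silvestrol (-2.31 ± 0.18), whose 5′ UTR has 978 nt. Of 8 arginine methyltransferases 1 fell (PRMT2, -1.69 ± 0.17).

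No gene passed without the block among 8 H3K9 partners and readers, 6 DOT1L partners and 11 other JmjC proteins, with 1, 4 and 2 lower and 1, 0 and 4 higher with it. For these lists, too, 28.1% of all genes were lower and 25.0% higher with the block. Of 7 genes that supply the methyl donor, AHCY, which removes the spent donor, rose (0.71 ± 0.14) and AHCYL1 fell (-0.72 ± 0.12). MAT2A, which makes the donor S-adenosylmethionine, had a TE z-score of 2.14 in passage 3, where its mRNA had a log2 ratio of -1.25.

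In the INK128 experiment each value has 1 library and no test. Of the 54 members listed for INK128, 47 reached a mean RF level of 1 FPKM. The RF log2 ratio of the 47 had a median of 0.03, against 0.02 over all genes. None was below -1, where 1.48% of all genes were, and 1 was above 1 (2.13%, against 1.25% of all genes). That gene, PRDM12, had 2.11 FPKM in the DMSO RFs and 7.52 FPKM with INK128, and it had 0 to 14 RF reads per library in the Silvestrol table. Total RNA was lower for all 47, with a median log2 ratio of -1.24, but the median of all genes was -1.17, a shift of the whole table. Relative to that shift no member was more than 1 higher, where 4.26% of all genes were.

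By TE z-score 0 members were below -1.5 with INK128, where 5.29% of all genes were, and 2 were above 1.5 (4.26%, against 3.08%), the higher being PRDM12 at 3.57. Total RNA was not filtered, and z-scores of several members named here rest on low values of it. It was 0.202 and 0.0823 FPKM for KDM1B, 0.363 and 0.153 FPKM for WHSC1L1 and 0.622 and 0.252 FPKM for PRDM4, in DMSO and INK128. Of the 5 members that Silvestrol lowered most, SETD3 was also among the lowest here (log2 RF ratio -0.16, z-score -0.82) and the other 4 had z-scores above 0, with MLL2, listed as KMT2D, at 0.56. PRDM4 had RFs of 4.80 FPKM in DMSO and 5.75 FPKM with INK128 and a z-score of 0.79, WHSC1L1 had a log2 RF ratio of -0.06 and a z-score of 0.08, SETD5 had 4.65 and 4.86 FPKM and 0.56, and KDM1B had 2.97 and 3.16 FPKM and 0.46. The lowest of the members were PRDM2 (-0.98), SETDB1 (-0.92), EZH1 (-0.84) and SETD3 (-0.82).

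The INK128 table lists the MLL genes by their later symbols. Their RFs were 1.83 and 2.22 FPKM for KMT2D (MLL2), 4.31 and 4.77 FPKM for KMT2A (MLL), 2.08 and 1.97 FPKM for KMT2B (MLL4), 2.13 and 2.58 FPKM for KMT2C (MLL3) and 3.31 and 3.31 FPKM for KMT2E (MLL5), in DMSO and INK128. Over the 43 members with a z-score for both drugs under the same symbol, the Spearman rho between the z-scores was 0.14. The MLL genes are not among the 43. The drugs were tested in separate experiments with separate controls and different units, and the difference between them was not tested.

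**Figure D5:**
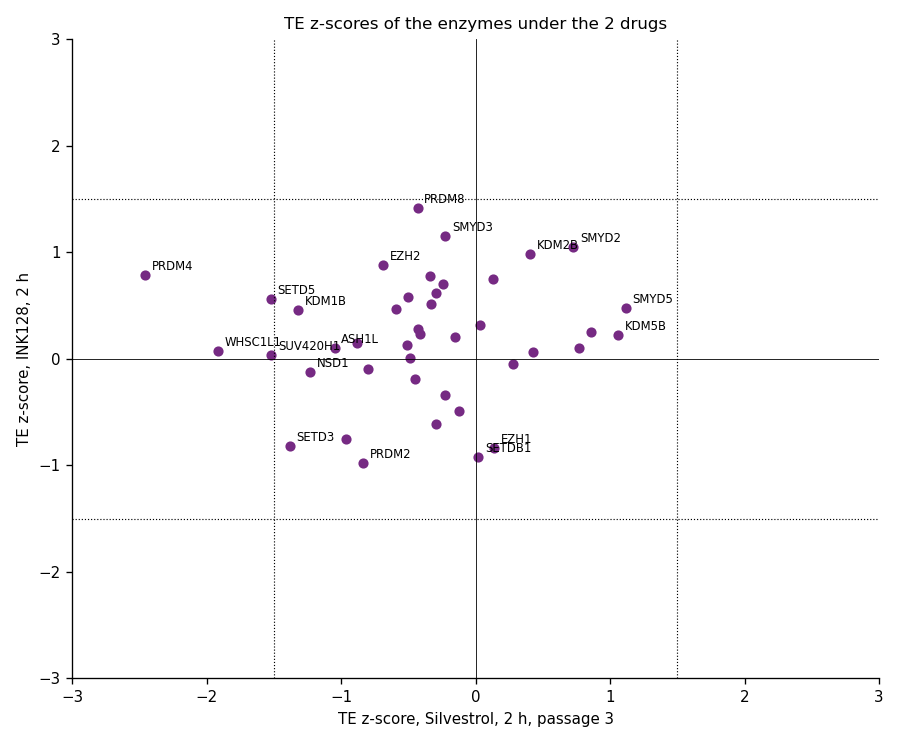
TE z-scores of 42 of the 43 enzymes measured under the same symbol in both experiments, with Silvestrol at 2 h in passage 3 on the horizontal axis and INK128 at 2 h on the vertical axis, 1 library per value and dotted lines at -1.5 and 1.5. The MLL genes, listed by later symbols for INK128, are not drawn. PRDM4, WHSC1L1, SETD5 and SUV420H1 lie left of -1.5 with Silvestrol, and no point lies below -1.5 with INK128.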

How the data were processed

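The data are 2 tables that the authors deposited, with RF and RNA values of MDA-MB-231 cells. For Silvestrol, the authors aligned reads with Bowtie (at most 2 mismatches) to hg19 and known transcripts, and deposited read counts and RPKM per transcript. For INK128 they deposited FPKM, with no counts, and the program is not given in the sources used here. The deposited columns of TE (a ratio), its log2 change and its score are the authors' own comparisons and were not used. The deposited INK128 TE is not the ratio of the deposited FPKM, so the INK128 z-scores here, made from the FPKM, are another measure. The columns of single samples that were set aside number 0.

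Repeated lines (38897 lines, 25758 distinct) were dropped, and for 546 symbols with several entries that with the highest mean RF RPKM was taken. The filter kept 10505 genes. Tests of counts used edgeR 4.0.16 under R 4.3.3 (TMM, quasi-likelihood, Benjamini-Hochberg adjusted p under 0.05), with DESeq2 1.42.0 as an alternative. Samples were grouped by the labels. Replicates 1 and 2 are passages 3 and 4, shared by DMSO and Silvestrol, and their deviations correlated with r = 0.709 over 10505 genes, so passage pairs the samples. The labels do not say more of how separate the cultures were. TE z-scores were computed from RPKM (passage 3, no pseudocount) or FPKM ratios, standardized over the genes tested. Ratios of single libraries (1 h, mRNA and INK128) have no test of their own, and in fits with a lone library it is assumed to vary like the other groups. Total counts set the precision; the deeper passage 3 libraries hold more reads than those of passage 4.

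On simulated counts for the 10505 genes, with a log2 change of 2 in 200 of them, the test on RFs found 169 and 13 others, the TE test 3 and 2, and the test of 2 h against 1 h 41 and 4. 5′ UTRs came from GENCODE 44 on GRCh37 (99.4% MANE Select transcripts, 98.0% of tested genes found), and folding energies from RNAfold 2.7.2. Python 3.11.15, numpy 2.4.6 and pandas 2.3.3 were used.

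The members, role lists and partner lists were chosen with earlier results of these data known. Values are given for members past a threshold, the 5 lowest and 5 highest RF changes and the paralog sets, and partner genes serve as examples of their lists. Alternatives covered the block, DESeq2, scaling, filters, pseudocounts, reads scaled to library size only, counted length and leaving out each RF library. Some results are not reported here.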

Additional observations from a re-analysis of the deposited data

How the results depend on the processing

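The fit with passage as a replicate block moved the RF calls from 8 members lower and 1 higher to 18 and 10 (all genes, from 815 and 234 to 2954 and 2626), and the TE calls from 0 members to 18 and 7 (all genes, from 2 lower and 0 higher to 2367 and 2389). For 2 h against 1 h it called 121 and 93 genes, with no member among them. Adding the 1 h libraries to the RF fit gave 18 and 9 members (2772 and 2284 genes). DESeq2 called 3 members higher in RFs and 611 genes higher, and in TE 7 members lower and 1 higher (539 and 399 genes). RLE scaling and the offset for counted length each gave 0 genes lower in TE, and no filter on low values gave 166 lower and 18 higher, with 2 members lower. Leaving out 1 RF library gave 0 to 9 members lower and 0 to 2 higher in RFs (0 to 924 and 0 to 279 genes), and 0 to 7 members lower in TE (0 to 671 and 0 to 395 genes). In these fits with a lone library, it is assumed to vary like the other group. KDM4B turned from -0.29 to 0.0566 without the passage 3 DMSO library, within -0.55 to 0.0566 over these fits. Other members with small changes turned without that library too, such as KDM6B (-0.20 to 0.25), PRDM8 (-0.30 to 0.09) and DOT1L (-0.01 to 0.29).

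With no minimum RPKM 4 members, and with a minimum of 5 RPKM 3 members, had a TE z-score below -1.5. The shares of all genes at these settings are not given, so these counts do not show whether the excess over all genes holds there. With a pseudocount of 0.5 or a minimum of 5 RPKM, 0 members were above an mRNA log2 ratio of 1, and with no minimum 1 was below -1. At 1 h, no minimum gave 1 member above 1, and a minimum of 5 RPKM left 1 below -1, since fewer genes were tested. For INK128, a pseudocount of 0.1 gave 1 member below and 1 above the TE thresholds and 0 past the total RNA threshold, and no minimum FPKM gave 2 members higher in RFs and 1 higher in total RNA. With a minimum of 5 FPKM in both the RFs and the total RNA no member remained to be counted. Other causes of these shifts were not tested. The passage 4 Silvestrol library, at 2652423 reads, and the single mRNA libraries limit what can be seen, most of all for SETDB2, SUV420H2, PRDM1 and PRDM11.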
